A study of Mus musculus with 14 samples.

Results

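The 10 genes described here make, bind, break down or respond to retinoic acid in mouse forelimb buds: Aldh1a2, Aldh1a3, Rdh10, Cyp1b1, Cyp26a1, Cyp26b1, Rarb, Crabp1, Crabp2 and Dhrs3. They were chosen by name, as the rows whose symbol equals one of these, and all 10 were found among the 23284 symbols counted in each sample. The transcriptomes came from wild-type and Smad4-deficient forelimb buds of NMRI embryos at E10.0, with 30 somites, and at E10.5, with 35 somites. Both forelimb buds of an embryo were pooled into 1 replicate, with 3 wild-type and 4 Smad4Δ/Δc embryos at each stage, 14 in all. The Smad4Δ/Δc embryos carried a null allele and a floxed allele of Smad4 that the PrxCreT/+ transgene inactivates. This transgene is a Cre recombinase under Prrx1 control that acts in the limb bud mesenchyme. Ectoderm, vessels and blood keep the floxed allele but carry the null allele as well, unlike those of wild-type embryos. The labels of the wild-type embryos, Smad4+/+ PrxCreT/+, list the same transgene. The RNA is that of whole buds, in which fewer cells of a type and less RNA per cell cannot be told apart.

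Retinoic acid is made from vitamin A in a pair of steps. Rdh10 encodes the dehydrogenase that oxidizes retinol to retinal, Aldh1a2 the dehydrogenase that oxidizes retinal to retinoic acid in the flank and proximal mesoderm, and Dhrs3 a reductase that turns retinal back into retinol. Inside cells the acid is bound by the proteins of Crabp1 and Crabp2, it acts through nuclear receptors such as the one encoded by Rarb, and it is removed by the hydroxylases of the Cyp26 family. In the early limb bud, synthesis in the trunk and proximal tissue and breakdown by CYP26B1 in the distal mesenchyme are known to set up a graded distribution along the limb.

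Rarb and Cyp26a1 are textbook genes that retinoic acid induces directly, through a retinoic acid response element in which a motif of 6 bases occurs 2 times in the same direction with a spacer of 5 bases. Their upstream sequences are shown because only they, of the genes here with a sequence at hand, held such a repeat in the search given below. The 150 bases are credited to RefSeq promoter windows of build GRCm38.p6 and were placed on mm9, the build of the counts, by an exact match. The stretch of Cyp26a1 is chr19:37772148-37772297 on the plus strand, and that of Rarb is chr14:17407991-17408140 on the minus strand. Capitals mark the 2 motifs, which in Cyp26a1 are read on the opposite strand.
Cyp26a1: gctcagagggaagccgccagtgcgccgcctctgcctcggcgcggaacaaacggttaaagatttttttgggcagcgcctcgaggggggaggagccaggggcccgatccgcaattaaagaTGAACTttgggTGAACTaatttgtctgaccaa
Rarb: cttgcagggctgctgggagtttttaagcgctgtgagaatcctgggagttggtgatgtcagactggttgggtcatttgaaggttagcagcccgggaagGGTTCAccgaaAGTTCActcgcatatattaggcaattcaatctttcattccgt
The element of Cyp26a1 reads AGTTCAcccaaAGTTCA on the minus strand and lies between 32 and 16 bases before the RefSeq start site, upstream of the gene. The element of Rarb lies between 53 and 37 bases before its start site, which is internal to the longer GENCODE gene model, so that the annotation calls the place an intron. Windows of 300 bases, from 250 before to 50 after the start site, were at hand for 7 of the 10 genes, 9 windows in all: Aldh1a2, Cyp1b1, Cyp26a1, Cyp26b1, Rarb, Crabp1 and Dhrs3. The motif AGGTCA, which is the common form, the form AGTTCA of the elements above, the form GGTTCA that Rarb also holds, and a further form GGGTCA were searched in them as direct repeats, in any pairing, on both strands and with spacers of 1, 2 or 5 bases. Cyp26a1 and Rarb each held 1 such repeat, with the spacer of 5 bases, and the windows of the other 5 genes held none. Of all 32851 mouse windows, 32 (0.0974%) held a repeat with that spacer, and 193 (0.588%) a repeat with any of the 3 spacers. A match is a description of the letters and not evidence of a binding site.

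Between 34066930 and 61691258 reads per embryo were counted on genes. Smad4 fell from 161 ± 8.43 CPM (SD, n = 3) in wild type to 39.8 ± 4.19 CPM (SD, n = 4) in mutants at E10.0, and from 166 ± 2.27 to 37 ± 3.43 CPM at E10.5. CPM is the count of a gene scaled to a library of standard size, after TMM normalization, which sets most genes equal between libraries. All 14 libraries matched their labels in this gene. The 8 forelimb mesenchyme markers summed to 1170 to 1350 CPM in wild-type and 969 to 1130 CPM in mutant embryos at E10.0, and to 1370 to 1430 against 1100 to 1190 CPM at E10.5. Of the 8, 4 and 3 were called lower and none higher, where 3.28% and 1.54% of all genes were called lower. The list holds Lhx2, which the study reports as a target gene of SMAD4 with reduced expression in these mutants. Most of the sum is Prrx1, at 537 to 915 CPM over all embryos. Fgf10 did not fall at E10.0, with 53.8 to 62.6 CPM in wild type and 58.4 to 67.8 CPM in mutants. The 5 hindlimb markers summed to 2.9 to 5.57 against 4.5 to 6.7 CPM, and to 7.93 to 11.2 against 14.3 to 17.6 CPM. The part of these shifts in the results was not tested. The mutant libraries of replicates 4 and 5 of both stages stood apart. The ribosomal RNA gene Rn45s took 1.72% to 8.05% of their reads against 0.151% to 0.478% in the other 10 libraries, and no wild-type library was of this kind, so that in them this property cannot be told apart from the genotype. The genotype differences of the 9 tested members are therefore also given without these 4 libraries, which leaves 2 mutant embryos per stage.

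Levels per kilobase of exon allow genes to be compared with each other. In wild type at E10.0, the binding proteins were the most abundant, with 432 ± 44.4 CPM per kb for Crabp1 and 375 ± 28 CPM per kb for Crabp2 (SD, n = 3). Their ranges over embryos, 396 to 482 and 342 to 393, were separate. The hydroxylase gene Cyp26b1 (16.9 ± 2.69 CPM per kb) and the receptor gene Rarb (14.8 ± 1.3) came next, and their ranges overlapped. Rdh10 (6.5 ± 1.07) exceeded Cyp1b1 (5.07 ± 0.122), a cytochrome P450 gene that can also oxidize retinol and retinal, in all embryos. Aldh1a2 (2.34 ± 0.619) and Dhrs3 (2.27 ± 0.237) were of like level and overlapped. Cyp26a1 stood at 0.779 ± 0.157 CPM per kb. Aldh1a3, which encodes another retinal dehydrogenase, was near the limit of detection, with 1 to 16 reads per library over all 14 libraries. The order differed between the groups. Crabp2 lay above Crabp1 in wild type at E10.5, with 376 ± 18.2 against 265 ± 36.8 CPM per kb and separate ranges. In the mutants at E10.0, Aldh1a2 reached 11.3 ± 3.96 CPM per kb (SD, n = 4), within the range of Rarb (10.8 to 15.5 CPM per kb).

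**Figure D1:**
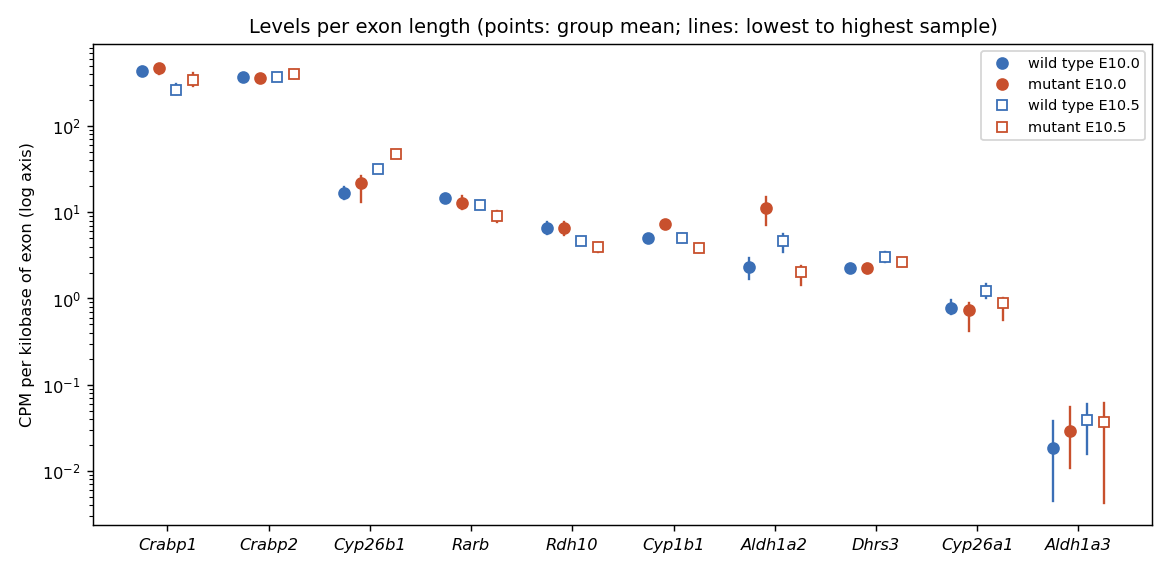
Mean level of each gene per kilobase of exon (CPM per kb, log axis) in the 4 groups; lines run from the lowest to the highest embryo. No embryo is below 233 CPM per kb in Crabp1 or above 0.0616 in Aldh1a3, and the mean of Aldh1a2 is 2.34 in wild type and 11.3 in mutants at E10.0.

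The comparison of genotypes at each stage asks which genes differ when mesenchymal Smad4 is lost and all other cells carry the null allele. That of stages asks how they move as the bud grows out. A gene was called differentially expressed (a DEG) at an FDR (false discovery rate, the Benjamini-Hochberg adjusted p of edgeR's exact test over 12393 genes) up to 0.1 if its level differed by 1.2-fold or more. Of the 10 genes, 9 passed the filter of 1 CPM in at least 3 samples. Aldh1a3 did not, with 0.0195 to 0.285 CPM over all embryos, and was not tested.

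At E10.0, 2 of the 9 tested genes were higher in mutants and none was lower. Over all genes, 3.33% were called higher and 3.28% lower, and the median log2 fold change of the 9 genes was 0, against -0.017 for all genes tested. The exact test gave no lower gene at an unadjusted p under 0.05 either, and neither the quasi-likelihood test nor DESeq2 called one. At E10.5, 2 were higher and 3 lower, where 2.19% and 1.54% of all genes were called, and the median was -0.22 against -0.01. The genes were chosen with earlier results known, and these counts describe them without a test of the group.

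**Figure D2:**
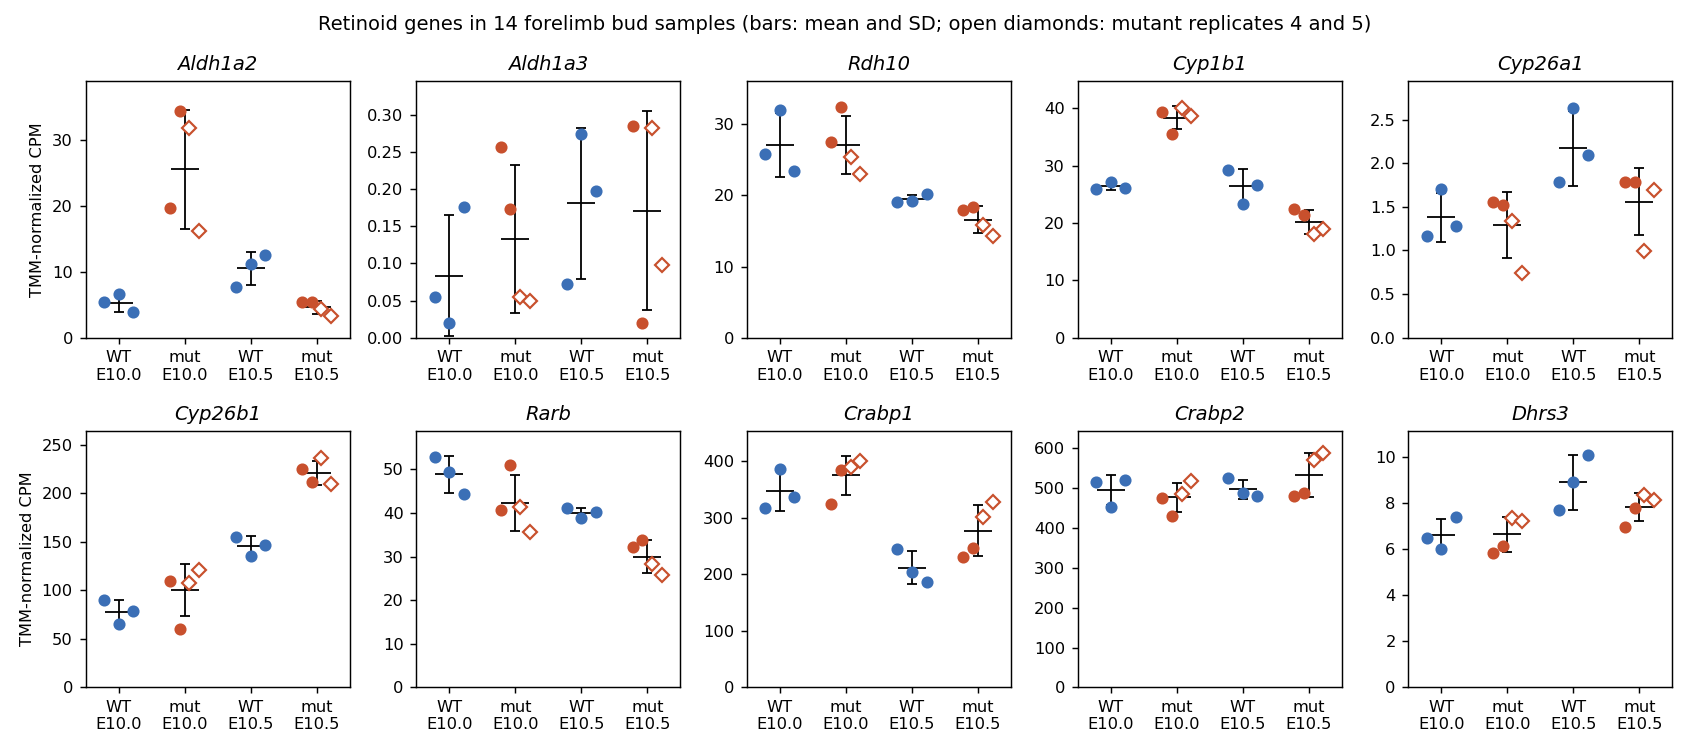
TMM-normalized CPM of each gene in the 14 embryos (linear axes from 0; WT, wild type; mut, Smad4Δ/Δc); bars give the mean and SD of each group, and open diamonds mark mutant replicates 4 and 5. Aldh1a2 of the mutants lies between 16.1 and 34.4 CPM at E10.0, above all wild types, and between 3.26 and 5.37 at E10.5, below all wild types.

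Aldh1a2, the main source of retinoic acid in the trunk and proximal limb, moved most, and in opposite directions at the 2 stages. At E10.0 it was at 5.43, 6.62 and 3.83 CPM in the wild-type embryos of replicates 1, 2 and 3, and at 19.6, 34.4, 31.8 and 16.1 CPM in mutant replicates 1, 3, 4 and 5. At E10.5 it was at 7.76, 11.2 and 12.6 CPM in wild-type replicates 1 to 3, and at 5.37, 5.35, 4.33 and 3.26 CPM in mutant replicates 1, 2, 4 and 5. All mutants lay above all wild types at the earlier stage and below all of them at the later one. The mutant level was 4.81-fold that of wild type at E10.0 (log2 fold change 2.27 ± 0.35 SE, edgeR exact test, FDR 1.9e-14). At E10.5 it was 2.29-fold lower (log2 fold change -1.20 ± 0.27 SE, edgeR exact test, FDR 0.000157). The effects differed by -3.45 ± 0.44 on the log2 scale (interaction of genotype and stage, edgeR quasi-likelihood test, FDR 0.00329). Without mutant replicates 4 and 5 the 3 values were 2.37, -0.97 and -3.33, with edgeR FDRs of 1.41e-17, 0.0117 and 0.0144. With any 1 library left out the values ran from 2.09 to 2.46, from -1.37 to -1.04 and from -3.64 to -3.27, and all 3 calls held in these fits.

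Of the 3 genes most like Aldh1a2 over the 14 samples, 2 were markers of mesothelium, the epithelium that lines the body cavity next to the limb. Of the tested genes outside the group, the 3 with the highest Pearson r of log2(CPM + 1) were Wt1 (r = 0.989), a transcription factor gene of mesothelium and coelomic epithelium, Upk3b (r = 0.971), a uroplakin gene of mesothelium, and Gm98 (r = 0.929). These r are descriptions over 14 samples that share 4 groups. Within groups, the deviations from the group means gave r of 0.94, 0.91 and 0.81. Wt1 was at 1.61, 1.88 and 0.88 CPM in wild type at E10.0 and at 5.32, 9.9, 10.1 and 5.07 CPM in mutant replicates 1, 3, 4 and 5. At E10.5 it was at 2.23, 3.36 and 3.96 CPM in wild type and at 1.8, 1.74, 0.679 and 0.456 CPM in mutant replicates 1, 2, 4 and 5. The embryos with high Aldh1a2 were thus those with high Wt1, within groups as well as between them. The quotient of Aldh1a2 over Wt1 CPM, compared only between samples, ran from 3.38 to 4.35 and 3.18 to 3.47 in wild type at E10.0 and E10.5, from 3.15 to 3.69 in mutants at E10.0, and from 2.99 to 7.14 in mutants at E10.5. In that last group it was 2.99 and 3.08 in mutant replicates 1 and 2, and 6.38 and 7.14 in replicates 4 and 5, the libraries that stood apart. Wt1 was counted there with only 24 and 14 reads, below 1 CPM, so that the quotients of replicates 4 and 5 are uncertain.

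**Figure D3:**
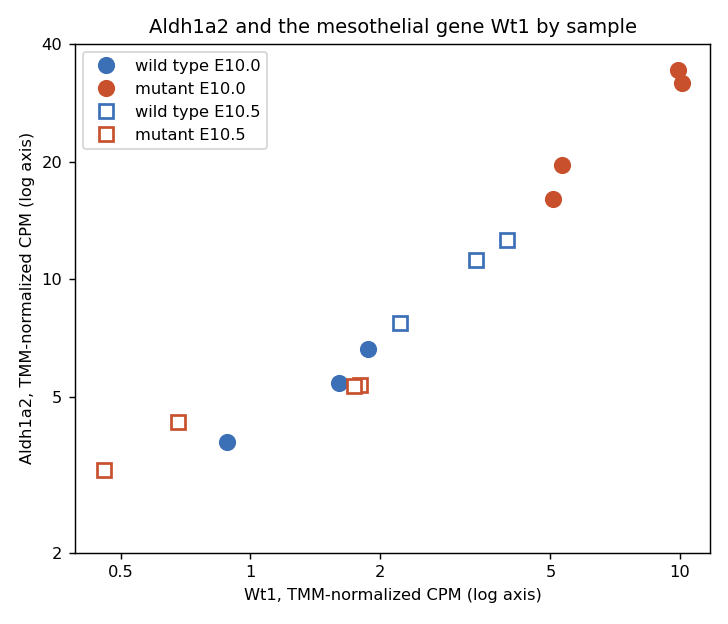
Aldh1a2 against Wt1 in each of the 14 embryos (TMM-normalized CPM, both axes logarithmic); filled circles are E10.0, open squares E10.5. The mutants at E10.0 are at the upper end in both genes, with Aldh1a2 from 16.1 to 34.4 and Wt1 from 5.07 to 10.1 CPM, and the mutants at E10.5 share the lower end with the wild types at E10.0.

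The list of 10 mesothelium and body wall markers had 9 in the table and 6 past the filter, and some of them moved with Aldh1a2. These markers were chosen after their values were seen. Wt1 and Upk3b are also the genes named above for their likeness to Aldh1a2 in these same samples, so that their movement with it is no separate result. At E10.0, 3 were higher in mutants and none lower, where 3.33% and 3.28% of all genes were called. These were Wt1 at a log2 fold change of 2.38 and, as descriptions only, Lrrn4 at 1.42 and Upk3b at 3.35. At E10.5, none was higher and 3 were lower, where 2.19% and 1.54% of all genes were called. These were Wt1 at -1.42, Gata5 at -2.54 and, as a description only, Upk3b at -1.76. Krt19 and Upk1b were called between genotypes at neither stage, and Upk1b rose with stage in mutants (log2 fold change 0.89, edgeR exact test, FDR 0.011), where Aldh1a2 fell. Upk3b reached 1 CPM only in the 4 mutants at E10.0 and in wild-type replicate 3 at E10.5 (1.44 CPM). It thus passed the filter through the group in which it was high, and its values and FDRs, here and below, are a description. Beside these mutants, Lrrn4 reached 1 CPM only in wild-type replicates 1 and 3 at E10.0 (1.83 and 1.32 CPM). It too passed the filter mainly through the group in which it was high, and its values are likewise a description. The unadjusted exact p was under 0.05 for no marker in the missing direction at either stage, and neither the quasi-likelihood test nor DESeq2 called one. Wt1 and Gata5 also passed the interaction test (edgeR quasi-likelihood FDR 0.019 and 0.0683). The FDR of Upk3b there was 0.0366, which for the reason above is a description. Leaving out mutant replicates 4 and 5, Wt1 and Upk3b did not pass at E10.5 (-0.84 and -1.18, edgeR FDR 0.193 and 0.36), while Gata5 did at -2.24. In the interaction, Wt1 passed without them at -3.24 (edgeR FDR 0.0667), and Upk3b at -4.75 and Gata5 at -2.33 did not (FDR 0.256 for each). The call of Wt1 at E10.0 held without them, at 2.40. As descriptions, the values of Upk3b and Lrrn4 there were 3.57 and 1.55. Upk3b was also lost at E10.5 without mutant replicate 1, 4 or 5 or wild-type replicate 3 (edgeR FDR 0.122 to 0.348), and in the interaction without mutant replicate 5 or wild-type replicate 3 of that stage (FDR 0.11 and 0.166). The summed level of the list was 10.8 to 14.8 CPM in wild-type and 17.5 to 35.8 CPM in mutant embryos at E10.0, and 13 to 15.8 CPM against 6.81 to 10.8 CPM at E10.5. Gata4, Msln and Tcf21 were below the filter, and the latter pair had group means of at most 0.113 CPM. The part of these cells in the difference of Aldh1a2 was not tested.

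Rdh10, which supplies the retinal, did not pass the test between genotypes. At E10.0 it was at 25.8, 32 and 23.4 CPM in wild type and at 27.5, 32.5, 25.4 and 23 CPM in mutants, and the groups overlapped. At E10.5 the wild-type embryos were at 19.1, 19.2 and 20.2 CPM and the mutants at 17.9, 18.4, 15.9 and 14.3 CPM, all below the wild types. The log2 fold changes were 0.00 ± 0.17 SE and -0.22 ± 0.087 SE (edgeR exact test, FDR 1 and 0.608), and without mutant replicates 4 and 5 they were 0.17 and -0.09 (edgeR FDR 0.396 and 0.815).

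Cyp1b1 changed direction between the stages as Aldh1a2 did, by a smaller step. At E10.0 it was at 26, 27.2 and 26.1 CPM in wild type and at 39.4, 35.6, 40.1 and 38.6 CPM in the mutants. At E10.5 it was at 29.3, 23.3 and 26.7 CPM in wild type and at 22.4, 21.4, 18.1 and 18.9 CPM in mutant replicates 1, 2, 4 and 5. The genotypes did not overlap at either stage. Cyp1b1 was 1.45-fold higher in mutants at E10.0 (log2 fold change 0.54 ± 0.042 SE, edgeR exact test, FDR 6.17e-05) and 1.3-fold lower at E10.5 (log2 fold change -0.38 ± 0.12 SE, FDR 0.0149). The effects differed by -0.92 ± 0.13 on the log2 scale (edgeR quasi-likelihood interaction, FDR 0.0149). With mutant replicates 4 and 5 left out, the higher level at E10.0 passed at 0.52 (edgeR FDR 0.000218), while at E10.5 the log2 fold change was -0.26 (FDR 0.257) and the interaction -0.78 (FDR 0.146), neither of which passed. The call at E10.5 was also lost without wild-type replicate 1 (-0.30, edgeR FDR 0.26) or 3 (-0.37, edgeR FDR 0.101). Its most alike genes were Gnptab (r = 0.934), Diexf (r = 0.923) and Phlpp1 (r = 0.902), none of them a mesothelium marker of the list.

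Aldh1a2 and Cyp1b1 were the only members with an interaction, at a background of 0.0565% of all genes called for a more positive and 0.129% for a more negative effect at E10.5. The other 7 tested members had interactions from -0.39 to 0.27, with edgeR quasi-likelihood FDRs of 0.95 to 0.957. In wild-type buds, Aldh1a2 increased 1.99-fold from E10.0 to E10.5 (log2 fold change 0.99 ± 0.31 SE, edgeR exact test, FDR 0.00606). In Smad4Δ/Δc buds it decreased 5.54-fold over the same interval (log2 fold change -2.47 ± 0.31 SE, FDR 4.93e-22). Cyp1b1 was at 26.4 ± 0.635 and 26.4 ± 3 CPM in wild type at the 2 stages and fell 1.9-fold in mutants (log2 fold change -0.92 ± 0.082 SE, edgeR exact test, FDR 3.03e-18).

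**Figure D4:**
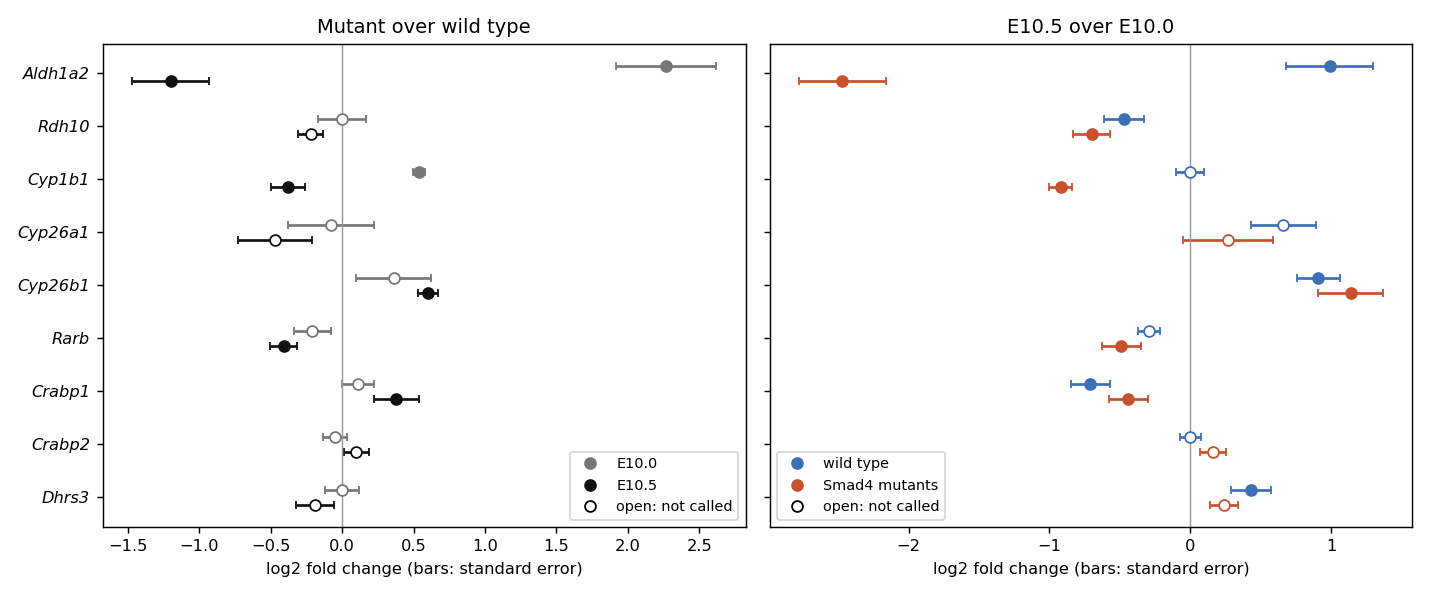
Log2 fold changes of the 9 tested genes with standard errors as bars, mutant over wild type at each stage on the left and E10.5 over E10.0 in each genotype on the right; filled points passed the edgeR test, open points did not. Aldh1a2 and Cyp1b1 lie on opposite sides of 0 at the 2 stages, at 2.27 and -1.20 and at 0.54 and -0.38, while Cyp26b1 lies at 0.36 and 0.60.

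Among the genes that remove retinoic acid, Cyp26b1, the hydroxylase of the distal limb mesenchyme, was higher in mutants at E10.5. The wild-type embryos were at 155, 135 and 147 CPM and the mutants at 225, 212, 236 and 210 CPM, without overlap. The level was 1.51-fold that of wild type (log2 fold change 0.60 ± 0.07 SE, edgeR exact test, FDR 0.0117). Without mutant replicates 4 and 5 the log2 fold change was 0.59 (edgeR FDR 0.0286), but the call was lost without wild-type replicate 2 (FDR 0.146) and with the quasi-likelihood test (FDR 0.117). At E10.0 the wild types were at 89.6, 64.9 and 78.5 CPM and the mutants at 110, 60.6, 108 and 121 CPM. Mutant replicate 3 was the lowest of all 7 embryos, and the groups overlapped (log2 fold change 0.36 ± 0.26 SE, edgeR exact test, FDR 0.199). Leaving that embryo out, Cyp26b1 passed at 0.54 (edgeR FDR 0.000139), and without mutant replicates 4 and 5 it was at 0.15 (FDR 0.594). The genes most like Cyp26b1 were Lrig3 (r = 0.989), Rftn2 (r = 0.981) and Gatsl2 (r = 0.977).

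Cyp26b1 rose with stage in both genotypes. It increased 1.88-fold in wild type (log2 fold change 0.91 ± 0.15 SE, edgeR exact test, FDR 1.26e-05) and 2.21-fold in mutants (log2 fold change 1.14 ± 0.23 SE, FDR 2.88e-12), and the stages did not overlap in either genotype. The interaction of 0.23 ± 0.27 did not pass the test (edgeR quasi-likelihood FDR 0.957). Cyp26a1, the hydroxylase with the response element shown above, was counted with 30 to 134 reads per library. At E10.0 it was at 1.17, 1.7 and 1.28 CPM in wild type and at 1.56, 1.52, 1.34 and 0.738 CPM in mutants. At E10.5 it was at 1.78, 2.63 and 2.1 CPM in wild type and at 1.78, 1.78, 0.991 and 1.69 CPM in mutants. The genotypes overlapped or met at both stages, and the log2 fold changes of -0.08 ± 0.3 SE and -0.47 ± 0.26 SE did not pass (edgeR exact test, FDR 0.91 and 0.543). Without mutant replicates 4 and 5 they were 0.18 and -0.28 (edgeR FDR 0.695 and 0.657), so that the value at E10.0 turned its sign. Cyp26c1, the other member of the family, was below the filter, with at most 9 reads in any library.

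Rarb, the receptor gene with the response element, was lower in mutants at E10.5. The wild-type embryos were at 41.1, 38.8 and 40.2 CPM and mutant replicates 1, 2, 4 and 5 at 32.2, 33.8, 28.3 and 25.7 CPM, without overlap. The level was 1.33-fold lower (log2 fold change -0.41 ± 0.093 SE, edgeR exact test, FDR 0.0205). The 2 lowest embryos were mutant replicates 4 and 5, and without them the log2 fold change was -0.27 (edgeR FDR 0.211) and no longer passed. The call was likewise lost without mutant replicate 5 alone (edgeR FDR 0.14) and without wild-type replicate 1 (FDR 0.135) or 3 (FDR 0.107). At E10.0 the wild types were at 52.9, 49.3 and 44.3 CPM and the mutants at 40.7, 51, 41.3 and 35.6 CPM, with overlap (log2 fold change -0.21 ± 0.13 SE, edgeR exact test, FDR 0.342). Without mutant replicate 3, the highest of the mutants, it passed at -0.32 (edgeR FDR 0.0894), and without replicates 4 and 5 it was at -0.07 (FDR 0.69). Rarb was most like Aph1a (r = 0.944), Prpf19 (r = 0.943) and Alx1 (r = 0.943).

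The binding protein genes were abundant in every embryo. Crabp1 was at 245, 205 and 187 CPM in wild type at E10.5 and at 231, 247, 301 and 328 CPM in mutant replicates 1, 2, 4 and 5. Mutant replicate 1 lay below the highest wild type, and the 2 highest embryos were mutant replicates 4 and 5. Crabp1 was called 1.31-fold higher in mutants (log2 fold change 0.38 ± 0.16 SE, edgeR exact test, FDR 0.0631). Without replicates 4 and 5 it was at 0.18 (edgeR FDR 0.459) and did not pass. The call was also lost without mutant replicate 4 (edgeR FDR 0.226) or 5 (FDR 0.333) alone, without wild-type replicate 2 (FDR 0.305) or 3 (FDR 0.392), and with the quasi-likelihood test (FDR 0.184). At E10.0 Crabp1 was at 317, 386 and 337 CPM in wild type and at 325, 385, 390 and 401 CPM in mutants (log2 fold change 0.11 ± 0.11 SE, edgeR exact test, FDR 0.694, and 0.05 with FDR 0.802 without mutant replicates 4 and 5). Crabp2 ranged from 429 to 588 CPM over all 14 embryos, with log2 fold changes between genotypes of -0.05 ± 0.085 SE at E10.0 and 0.10 ± 0.085 SE at E10.5 (edgeR exact test, FDR 0.828 and 0.882). Leaving out mutant replicates 4 and 5, these were -0.12 and -0.03 (edgeR FDR 0.391 and 0.937), so that the value at E10.5 turned its sign.

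Dhrs3, the reductase gene that works against synthesis and is itself known to be induced by retinoic acid, was at 6.51, 6.03 and 7.4 CPM in wild type and at 5.85, 6.16, 7.35 and 7.23 CPM in mutants at E10.0. At E10.5 it was at 7.71, 8.94 and 10.1 CPM in wild type and at 6.99, 7.79, 8.38 and 8.17 CPM in mutants. The genotypes overlapped at both stages (log2 fold changes 0.00 ± 0.12 and -0.19 ± 0.13 SE, edgeR exact test, FDR 1 and 0.777, and -0.13 and -0.26 with FDR 0.65 and 0.488 without mutant replicates 4 and 5).

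With stage, 3 members rose and 2 fell in wild type, where 5.39% of all genes were called higher and 4.74% lower at E10.5 than at E10.0. Those that rose were Aldh1a2, Cyp26b1 and Dhrs3. Dhrs3 went from 6.64 ± 0.693 to 8.92 ± 1.2 CPM (log2 fold change 0.43 ± 0.14 SE, edgeR exact test, FDR 0.066), a call that was lost without wild-type replicate 1 or 2 at E10.0 (edgeR FDR 0.165 and 0.351) and without 2 or 3 at E10.5 (FDR 0.164 and 0.433). Those that fell were Crabp1, from 347 ± 35.6 to 212 ± 29.5 CPM (log2 fold change -0.71 ± 0.14 SE, FDR 8.92e-06), and Rdh10, from 27.1 ± 4.47 to 19.5 ± 0.588 CPM (log2 fold change -0.47 ± 0.14 SE, edgeR FDR 0.0176). The call of Rdh10 was lost without the E10.0 wild type of replicate 2 (edgeR FDR 0.281), the embryo with the highest level. Cyp26a1 rose in value from 1.38 ± 0.279 to 2.17 ± 0.431 CPM and Rarb went from 48.8 ± 4.3 to 40 ± 1.13 CPM, neither past the test (edgeR exact test, FDR 0.138 and 0.16). Both passed where the mutant libraries 4 and 5 were left out of the estimate of the spread (edgeR FDR 0.0339 and 0.0432), and Cyp26a1 also without wild-type replicate 1 at E10.5 (FDR 0.0873). The median of the 9 genes was 0, against -0.009 for all genes.

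In Smad4Δ/Δc buds, 1 member rose and 5 fell with stage, at a background of 10.8% of all genes called higher and 8.4% lower. The median of the 9 genes was -0.44, against -0.005 for all genes. Beside Aldh1a2 and Cyp1b1, those that fell were Rdh10 (27.1 ± 4.04 to 16.6 ± 1.88 CPM, log2 fold change -0.70 ± 0.13 SE, edgeR exact test, FDR 6.07e-07), Rarb (42.2 ± 6.42 to 30 ± 3.69 CPM, -0.49 ± 0.14 SE, FDR 0.000183) and Crabp1 (375 ± 34.1 to 277 ± 45.4 CPM, -0.44 ± 0.14 SE, FDR 0.00158). In Crabp1 the stages overlapped, as mutant replicate 1 at E10.0 (325 CPM) lay below replicate 5 at E10.5 (328 CPM). The calls of the 5 members that fell and that of Cyp26b1 held in each fit that left out 1 library and without replicates 4 and 5. With the replicate number as a block over all samples, Dhrs3 was called higher as well (log2 fold change 0.28, edgeR quasi-likelihood FDR 0.0617), which made 2 higher members. With the block over mutant samples alone it was at 0.22 (edgeR FDR 0.192).

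The rest of the pathway was read from 6 lists of 74 genes, of which 49 passed the filter. Most of them were not called between genotypes. At E10.0, 2 were higher and 3 lower in mutants, where 3.33% and 3.28% of all genes were called. At E10.5, 2 were higher and 4 lower, where 2.19% and 1.54% of all genes were called. The median log2 fold change was -0.06 at both stages. The quasi-likelihood interaction test called none of the 49, with 3 at an unadjusted p under 0.05 in the positive and 1 in the negative direction, while DESeq2 called 1, in the positive direction.

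On the uptake side, Stra6, the receptor that takes up retinol from its carrier protein, and its relative Stra6l, listed under the older symbol 1300002K09Rik, were higher in mutants at E10.5. Stra6 was at 54.8, 54.7 and 52.8 CPM in wild type and at 58, 75, 65.7 and 68.5 CPM in mutants, without overlap (log2 fold change 0.30 ± 0.079 SE, edgeR exact test, FDR 0.0746, and 0.31 with FDR 0.116 without mutant replicates 4 and 5). This call was lost without any 1 of the E10.5 libraries other than mutant replicate 1 (edgeR FDR 0.128 to 0.273). 1300002K09Rik was at 1.11, 1.91 and 1.64 CPM in wild type and at 3.2, 3.24, 2.66 and 3.06 CPM in mutants, without overlap (log2 fold change 0.97 ± 0.24 SE, edgeR exact test, FDR 0.0193, and 1.06 with FDR 0.0216 without mutant replicates 4 and 5), and did not pass without wild-type replicate 1 (0.78, FDR 0.229). Both were in the list of 6 tested genes for uptake, binding and storage, of which the other 4 were not called. Over all genes, 2.19% were called higher at that stage. At E10.5 the quasi-likelihood test called none of the 6 between genotypes. With the replicate block, Stra6 and 1300002K09Rik did not pass either (edgeR quasi-likelihood FDR 0.216 and 0.144). This list had no call at E10.0, none at an unadjusted exact p under 0.05, and none with the quasi-likelihood test or DESeq2.

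Of 9 tested dehydrogenases and reductases, 2 were lower at E10.0, where 3.28% of all genes were called lower. None was called at E10.5, where none had an unadjusted exact p under 0.05 and neither the quasi-likelihood test nor DESeq2 called any. Aldh1a7, an aldehyde dehydrogenase gene closely related to Aldh1a1, was at 1.92, 1.29 and 2.18 CPM in wild type and at 0.291, 0.71, 0.492 and 0.172 CPM in mutants at E10.0 (log2 fold change -2.08 ± 0.49 SE, edgeR exact test, FDR 5.74e-08, and -1.82 with FDR 7.15e-05 without mutant replicates 4 and 5). Its activity on retinal is not known from these data. Beside these 3 wild types it reached 1 CPM in 2 libraries (1.14 and 1.25 CPM), so that it passed the filter mainly through the group in which it was high. Its values and FDRs are therefore a description. The values at E10.0 are 63 to 105 reads against 7 to 41, and reads that match both paralogs were not counted, so that the level is uncertain. Rdh11, a retinal reductase gene, averaged 33.2 CPM in wild-type and 26.9 CPM in mutant embryos (log2 fold change -0.31 ± 0.12 SE, edgeR exact test, FDR 0.077, and -0.26 with FDR 0.13 without mutant replicates 4 and 5). The call of Rdh11 was lost without mutant replicate 3 or 4 or wild-type replicate 2 or 3 (edgeR FDR 0.104 to 0.579), and that of Aldh1a7 in no such fit.

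With all libraries and no replicate block, none of the 9 other nuclear receptor genes was called between genotypes at either stage. This held for the exact test, the quasi-likelihood test and DESeq2, with 2 at an unadjusted exact p under 0.05 at E10.0 and none at E10.5. Leaving out mutant replicates 4 and 5, 5 of the 9 were lower in mutants at E10.0, where 10.2% of all genes were called lower in that fit, and none was called at E10.5. These were Rara (log2 fold change -0.53, edgeR FDR 0.000143), Ppard (-0.48, FDR 0.00596), Rarg (-0.42, FDR 0.00216), Rxrb (-0.31, FDR 0.0369) and Rxra (-0.29, FDR 0.0382). Rara, the gene of the widely expressed retinoic acid receptor alpha, was at 34.9, 34.7 and 38 CPM in wild type at E10.0, at 22.7 and 26.3 CPM in mutant replicates 1 and 3, and at 38.5 and 33.9 CPM in mutant replicates 4 and 5. Rarg, the receptor gamma gene, was at 139, 125 and 152 CPM in wild type, at 108 and 96.6 CPM in mutant replicates 1 and 3, and at 128 and 140 CPM in replicates 4 and 5. In both genes the latter pair lay with or near the wild types and the former below all of them.

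The co-regulators of the receptors, which recruit or block the transcription machinery, held the 2 pathway genes that were higher at E10.0, of 10 tested. Over all genes, 3.33% were called higher at that stage. The co-repressor gene Ncor1 averaged 247 CPM in wild-type and 298 CPM in mutant embryos (log2 fold change 0.27 ± 0.083 SE, edgeR exact test, FDR 0.0608), and the acetyltransferase gene Ep300 at 130 and 164 CPM (0.33 ± 0.12 SE, edgeR exact test, FDR 0.0688). With mutant replicates 4 and 5 left out, neither passed, at 0.19 (edgeR FDR 0.128) and 0.28 (FDR 0.104). Ncor1 was also lost without mutant replicate 5 or any 1 of the wild types (edgeR FDR 0.107 to 0.41), and Ep300 without mutant replicate 3 or 5 or wild-type replicate 1 or 3 (FDR 0.103 to 0.482). None of the 10 was called at E10.5, with 1 at an unadjusted exact p under 0.05, and none by the quasi-likelihood test or DESeq2.

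Genes known to respond to retinoic acid moved downwards where they were called. Of 15 tested, 1 was lower at E10.0 and 4 were lower at E10.5, and none was higher at either stage. Over all genes, 3.28% and 1.54% were called lower at these stages. The medians of the list were -0.09 and -0.17, and no gene had an unadjusted exact p under 0.05 in the higher direction. The quasi-likelihood test called 1 and 2 lower, DESeq2 0 and 4, and neither called a higher gene. Meis3, a homeobox gene of the proximal Meis family, was at 10.1, 9.88 and 9.74 CPM in wild type at E10.5 and at 6.12, 5.41, 6.06 and 5.11 CPM in mutants, without overlap (log2 fold change -0.80 ± 0.065 SE, edgeR exact test, FDR 0.00138). Tshz1, a zinc finger gene of the proximal mesenchyme, was at 103, 92.4 and 99.1 CPM in wild type and at 71.5, 74.2, 72.8 and 67.9 CPM in mutants at E10.5 (log2 fold change -0.46 ± 0.055 SE, edgeR exact test, FDR 1.29e-05). It was also the gene lower at E10.0, where its log2 fold change was -0.28 ± 0.071 SE (edgeR exact test, FDR 0.0312, and -0.27 with FDR 0.0344 without mutant replicates 4 and 5). That call was lost without mutant replicate 1 or 5 or wild-type replicate 2 or 3 (edgeR FDR 0.106 to 0.165), and with other size factors the change of -0.26 was under the 1.2-fold limit. Without mutant replicates 4 and 5 Meis3 and Tshz1 passed at E10.5 with -0.77 and -0.42 (edgeR FDR 0.00649 and 0.000509). The caudal homeobox gene Cdx1 was also called at E10.5, averaging 1.51 CPM in wild-type and 0.834 CPM in mutant embryos (log2 fold change -0.87 ± 0.14 SE, edgeR exact test, FDR 0.0845). Leaving out mutant replicates 4 and 5, Cdx1 was at -1.06 (edgeR FDR 0.0819), and its call was lost without mutant replicate 1, 2 or 5 or any 1 of the wild types (edgeR FDR 0.132 to 0.321).

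With stage, 4 of the 15 response genes fell in wild type and 9 in mutants, and none rose in either by the exact test, the quasi-likelihood test or DESeq2, nor at an unadjusted exact p under 0.05. Over all 6 lists, 2 genes rose and 4 fell in wild type, and 6 rose and 10 fell in mutants. Of all genes tested, 5.39% were called higher and 4.74% lower in wild type, and 10.8% and 8.4% in mutants. The falls with the smallest p in wild type were Cdx1 (log2 fold change -1.92 ± 0.19 SE, edgeR exact test, FDR 8.8e-09), Hoxb1 (-1.72 ± 0.35 SE, FDR 0.00206) and Hoxb4 (-0.58 ± 0.14 SE, FDR 0.0074), homeobox genes of anterior and trunk identity. Hoxb4 was lost without wild-type replicate 2 at E10.0 (edgeR FDR 0.108). Among those in mutants were Cdx1 (-2.36 ± 0.29 SE, edgeR FDR 2.5e-16) and Meis3 (-1.07 ± 0.23 SE, FDR 6.06e-08). The genes that rose in wild type were the co-activator gene Ncoa1 (0.62 ± 0.15 SE, edgeR FDR 0.000308) and 1300002K09Rik (1.01 ± 0.4 SE, FDR 0.0233), of which the latter was lost without wild-type replicate 2 at E10.0 (edgeR FDR 0.268) or 2 or 3 at E10.5 (FDR 0.173 and 0.124). In mutants the rises with the smallest p were those of 1300002K09Rik (2.01 ± 0.33 SE, edgeR FDR 3.67e-12), Stra6 (0.46 ± 0.11 SE, FDR 2.13e-05) and Rarg (0.49 ± 0.16 SE, FDR 0.000543).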

How the data were processed

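RNA was polyA-selected, sequenced from a single end and aligned to mm9 with TopHat2 2.0.13 by the authors, who deposited raw counts per gene symbol from HTSeq without strand. Rows that name no gene, which hold unassigned and ambiguous reads, stayed out of library sizes. Of 23284 symbols, 1042 belonged to chromosomes X, Y or M and were dropped, as in the study's methods. The 12393 that reached 1 CPM in 3 or more of the 14 samples were tested with edgeR 4.0.16 in R 4.3.3 (TMM, factors 0.934 to 1.04, common and tagwise dispersions with 10 prior degrees of freedom over all samples). Pairs of groups were compared by the exact test and interactions by the quasi-likelihood test. DESeq2 1.42.0, other scalings and filters, a replicate block and samples left out were alternatives. Standard errors come from variances of log2 CPM with a prior count of 0.5. The tests recovered known changes in simulated counts. No member overlaps another gene's exons. No 2 replicates of a group agreed within counting noise. Error is counting error plus the spread between embryos.

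Members, lists and tests were chosen with earlier results of these data known. Named were all members, Smad4, Rn45s, every list gene called between genotypes, the 3 smallest p per direction between stages, and the 3 genes most like Aldh1a2, Cyp1b1, Cyp26b1 and Rarb. Some genes that meet these rules are not reported here. The receptors named without replicates 4 and 5 and the mesothelium markers were chosen after their values were seen. A block on the replicate number was run as an alternative in all comparisons. Same-numbered samples deviated together only between the stages of the mutants, where the 3 pairs had r of 0.571, 0.611 and 0.269 in their deviations from group means. Unlike-numbered mutant pairs had r of 0.383 and 0.286 within replicates 4 and 5 and of 0.112 to 0.349 within replicates 1 to 3. Pairs across these sets had r of -0.587 to -0.174. A pairing by number thus cannot be told apart from the split of libraries 4 and 5 from the others. Lists not given in the report stood as follows. Somite markers summed to 91.8 to 117 CPM in wild-type and 111 to 142 in mutant embryos at E10.0 and to 164 to 203 against 215 to 242 at E10.5, with 3 of 6 tested higher and 1 lower at both stages. Neural markers summed to 20.2 to 23.1 against 17.3 to 19.7 and to 19.1 to 22.9 against 16.7 to 19.2, ectoderm and ridge markers to 210 to 276 against 172 to 258 and to 199 to 204 against 144 to 201, endothelial markers to 267 to 310 against 293 to 344 and to 273 to 290 against 291 to 336, and erythroid genes to 2770 to 3680 against 2620 to 4880 and to 3630 to 5040 against 2730 to 3870. Their part in the results was not tested.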

Additional observations from a re-analysis of the deposited data

Results flagged for a closer look

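The genotype effect on Aldh1a2 differed between the stages by -3.45 on the log2 scale (edgeR quasi-likelihood interaction, FDR 0.00329), with all 4 mutants above all 3 wild types at E10.0 and all 4 below at E10.5. That on Cyp1b1 differed by -0.92 (edgeR quasi-likelihood FDR 0.0149), with the same lack of overlap.

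Of 22 groups of 4 mutant embryos examined, 2 held a sample far from the others, and about 1 in 20 is flagged by chance. Smad4 in mutant replicate 3 at E10.0 was at 46 CPM, against 36.9 to 38.4 CPM in the other mutants, and 152 to 169 CPM in wild type. Cyp26a1 in mutant replicate 4 at E10.5 was at 0.991 CPM, which is 35 reads, against 1.69 to 1.78 CPM in the other mutants.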

How the results depend on the processing

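No log2 fold change of a called gene turned its sign under any setting run. The calls of Aldh1a2 in all 5 comparisons, of Cyp1b1 at E10.0 and of the 6 members called between the stages of the mutants held under all of them. The genotype calls of Cyp1b1, Cyp26b1, Rarb and Crabp1 at E10.5 did not, as given with each gene. At E10.5, the number of members called higher went from 2 to 0 with the quasi-likelihood test, to 0 with the replicate block and to 1 without mutant libraries 4 and 5, and the number lower from 3 to 1 with the block and to 1 without these libraries. Without them 1 member was called in the interaction, where 2 had been. With the block, 2 members were called higher between the stages of the mutants. With 1 library left out, the members called higher and lower numbered 2 to 3 and 0 to 1 at E10.0, 0 to 2 and 1 to 3 at E10.5, and 2 to 4 and 1 to 2 between the stages of wild type.

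Over all genes, the 819 calls at E10.0 became 1961 with the block, 2018 without mutant libraries 4 and 5, and 254 to 1062 with 1 library left out. The 462 calls at E10.5 became 280 with the block and 286 to 468 with 1 library left out. Between the stages of wild type 1256 became 1932 in a fit of only these 2 groups and 484 to 1357 with 1 left out. The 23 interactions became 87 with DESeq2, 39 without a filter on low counts, 6 without mutant libraries 4 and 5, and 7 to 34 with 1 left out. The cause of these shifts was not tested. The replicate number paired no samples between genotypes (r of -0.26 to 0.174) or between the stages of wild type (-0.283 to -0.078). With the block, the log2 fold changes at E10.5 were 0.41 for Cyp26b1, -0.28 for Rarb, 0.23 for Crabp1 and -0.36 for Cyp1b1, none past the test, and 5 of the 9 other nuclear receptor genes were called lower at E10.0, Rarg among them (-0.44, edgeR quasi-likelihood FDR 0.0244). Replicate numbers 4 and 5 occur only in mutants, so that with the block over all samples these libraries add nothing directly to a genotype difference. The genotype results with this block and those without these libraries are therefore not independent. The block over mutant samples alone, chosen after seeing the data, changed no call of a member. Depth limits Aldh1a3, with 1 to 16 reads per library, and Cyp26a1, with 30 to 134.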
